A study of Mus musculus with 9 samples.

Results

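The group described here, named AP-1, Myc and immediate-early genes, held 10 genes. They are the Fos family genes Fos, Fosb, Fosl1 and Fosl2, the Jun family genes Jun, Junb and Jund, and Atf3, Ier2 and Myc. Not every member need be an immediate-early gene. The members were listed by symbol, with earlier results of these data known but by no threshold on a measured value, from 55413 genes of the GENCODE M21 annotation of the mouse genome (GRCm38, the same coordinates as mm10), of which 21938 are protein-coding. They were examined in the list of non-methylated islands (NMIs) of C127 cells, a line of mouse mammary epithelium, which were grown in medium with serum and for which the labels name no treatment or genetic change. An NMI is a stretch of DNA enriched by BioCAP, in which sonicated genomic DNA is bound to the CXXC domain of KDM2B, a protein domain that holds on to CpG sites without methylation. The series also held libraries of the BioCAP input, of open chromatin and of nascent RNA labelled with 4-thiouridine, which were not analysed here. The study asked how the SET1 complex, which methylates lysine 4 of histone H3, is brought to chromatin, and NMIs are the sites at which its subunit CFP1 can meet DNA without methylation.

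AP-1 is a dimer of basic leucine zipper proteins that binds TRE sites in DNA. Jun proteins pair with one another or with Fos proteins, whereas Fos proteins need a Jun partner, and Atf3 joins the same network. Immediate-early genes are induced by growth factors and stress without new protein synthesis, their transcripts are short-lived, and many of them are short genes with CpG-rich promoters.

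The NMI list came from 1 BioCAP library and held 13491 NMIs that covered 14.2 Mb, of which 13489 lay on chromosomes 1 to 19, X and Y. It gave a position for each NMI and no height, score or read depth, so that widths and overlaps could be measured but not the strength of capture, and without replicates no test of a difference was made. A gene without an NMI here is a gene with none in this list. The list holds no expression values, and the identity of the cells was not checked against marker genes.

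An NMI lay at an annotated transcription start site (TSS) of 10 of the 10 genes, as it did at 47.5% of all 21938 protein-coding genes (exact 95% binomial interval 46.9 to 48.2%, counting error only) and at 25.7% of the 4141 protein-coding genes whose span is 5000 bp or less. Each gene had 1 such NMI. These NMIs were wide: their median width was 3000.5 bp (range 1102 to 5180 bp), against a median of 1173 bp (quartiles 885 and 1543 bp) over the 9581 NMIs at a protein-coding TSS, and 8 of the 10 were 2500 bp wide or more, against 4.13% of the 10425 protein-coding genes with an NMI. Their CpG density was slightly lower at the median, 6.24 CpG per 100 bp against 6.89, with 6 of the 10 NMIs below 6.89. With more length at a slightly lower density, they held more CpG sites, a median of 209 against 81. The median share of the gene span inside the NMI was 47.2%, against 3.10% over all genes with an NMI and 25.6% over those of up to 5000 bp. That median fell between a high and a low group of members, and leaving out the 3 genes on chromosome 8 (Junb, Jund and Ier2) lowered it to 17.8%.

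**Figure D1:**
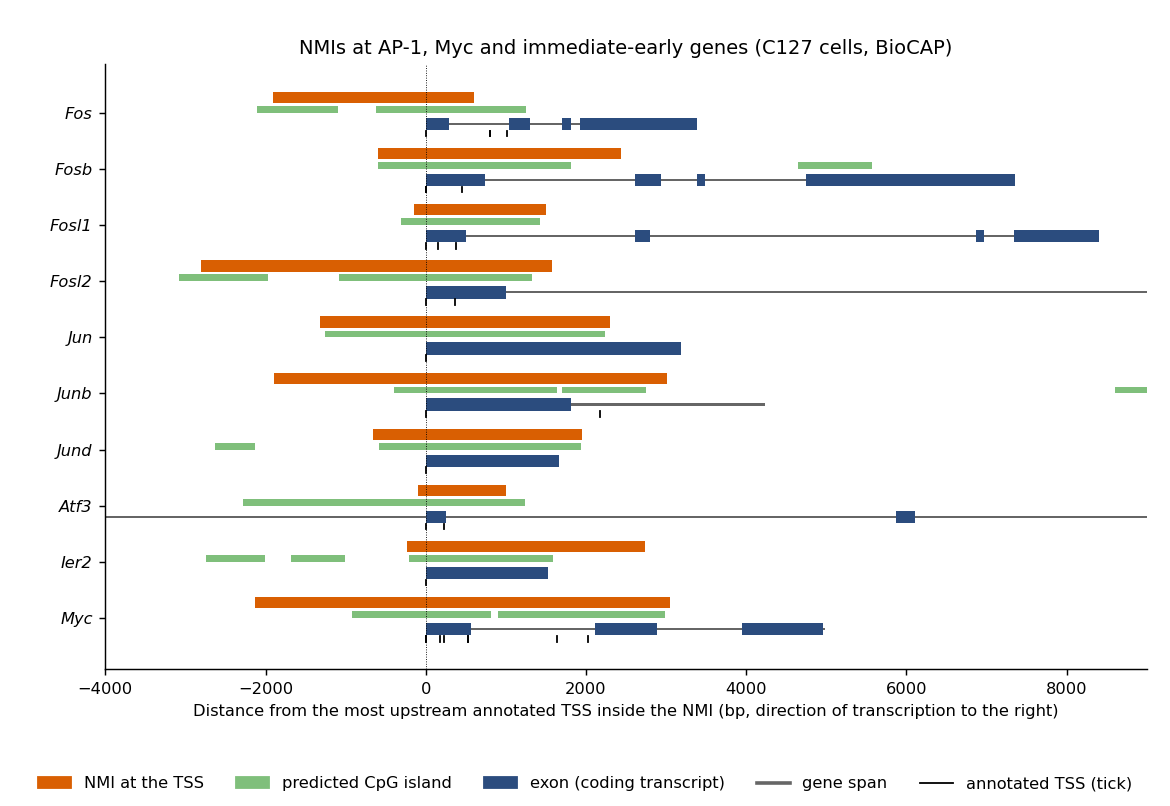
Positions of the NMI, predicted CpG islands, exons, gene span and annotated TSSs for each of the 10 genes, in bp from the most upstream TSS inside the NMI, transcribed to the right (Atf3 and Fosl2 run beyond the window; exons are those of 1 coding transcript). The NMI ends in the first intron in Fos, Fosb, Fosl1, Fosl2 and the drawn transcript of Atf3. It covers the whole GENCODE span of Jund and Ier2.

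The 4 Fos family genes shared 1 arrangement. Each has 4 exons in its main coding transcript, and in each the first exon lay wholly inside the NMI, the NMI stopped within the first intron, and the other exons lay wholly outside. The coding sequence inside was accordingly similar, 141 of 1140 bp in Fos (12.4%), 126 of 1014 bp in Fosb (12.4%), 105 of 819 bp in Fosl1 (12.8%) and 102 of 978 bp in Fosl2 (10.4%). The third exon was 108 bp in all 4 genes and in Atf3. The arrangement was not particular to the family. In the shorter coding transcript of Atf3 the first exon also lay wholly inside the NMI and the other exons outside. How common it is over all genes with an NMI was not counted.

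Fos, the founding member of the family and a classical marker of serum and neuronal stimulation, lies on chromosome 12 (85473890 to 85477273, plus strand, 3384 bp). Its NMI (85471979 to 85474487) was 2509 bp wide, at percentile 96.1 of the NMIs at protein-coding TSSs. Unlike the NMIs of most members it lay mainly upstream, reaching 1911 bp before the TSS and 597 bp after it, and it held 17.7% of the gene span. The TSSs of the non-coding transcripts that begin later in the gene lay 204 and 424 bp outside. The downstream edge did not coincide with the end of CpG-rich sequence. The first intron held 6.51 CpG per 100 bp inside the NMI and 5.37 outside, and the 1000 bp beyond the edge held 4.10 per 100 bp, the highest of the 10 genes downstream, where the median was 1.25. Both sides of this edge are given with those of Fosl1, where the density across the intron as a whole fell from 5.78 to 0.895 CpG per 100 bp. CpG sites are in capitals, the sequence is that of the mm10 reference in the direction of transcription, and the last line is the Fos promoter, which ends at the base before the TSS and lies within the NMI.
Fos last bases inside the NMI, chr12:85474388-85474487 (plus strand): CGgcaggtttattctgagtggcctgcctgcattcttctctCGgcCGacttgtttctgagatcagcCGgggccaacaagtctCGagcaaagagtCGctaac
Fos first bases outside the NMI, chr12:85474488-85474587 (plus strand): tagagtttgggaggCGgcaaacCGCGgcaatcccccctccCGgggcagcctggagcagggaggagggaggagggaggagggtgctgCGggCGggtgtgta
Fosl1 last bases inside the NMI, chr19:5448943-5449042 (plus strand): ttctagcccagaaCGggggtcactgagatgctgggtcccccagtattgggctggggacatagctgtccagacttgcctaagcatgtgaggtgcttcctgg
Fosl1 first bases outside the NMI, chr19:5449043-5449142 (plus strand): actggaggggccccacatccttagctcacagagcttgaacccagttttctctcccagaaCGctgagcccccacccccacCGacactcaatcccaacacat
Fos promoter, chr12:85473640-85473889 (plus strand): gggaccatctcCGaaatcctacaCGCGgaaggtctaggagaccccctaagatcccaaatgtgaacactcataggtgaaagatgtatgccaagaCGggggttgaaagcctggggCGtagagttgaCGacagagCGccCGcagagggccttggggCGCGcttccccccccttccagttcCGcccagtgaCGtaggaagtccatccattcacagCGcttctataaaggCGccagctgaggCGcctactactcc
In these windows of 100 bases Fos had 6 CpG on either side of the edge, and Fosl1 had 1 inside and 2 outside. The Fos edge thus lay between stretches of equal CpG number, and the Fosl1 edge lay in sequence already poor in CpG.

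Fosb, whose product has a long and a short splice form, lies on chromosome 7 (19302696 to 19310051, minus strand, 7356 bp), and its NMI (19307613 to 19310647) was 3035 bp wide. It reached 596 bp upstream and 2438 bp downstream of the TSS and took in all 4 distinct TSSs and 33.2% of the span. Its edge lay 1693 bp into the first intron and only 173 bp before exon 2, and the intron held 4.84 CpG per 100 bp inside the NMI and 4.07 outside. Fosl1, which encodes FRA1, a member raised in many invasive carcinomas, lies on chromosome 19 (5447547 to 5455946, plus strand, 8400 bp). Its NMI (5447395 to 5449042) was among the narrower ones, 1648 bp (percentile 79.6), with 152 bp upstream, 1495 bp downstream, all 3 TSSs and 17.8% of the span inside.

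Fosl2, which encodes FRA2, lies on chromosome 5 (32135801 to 32157842, plus strand) and is long for the group at 22042 bp. Its NMI (32133000 to 32137378) was nonetheless 4379 bp wide, at percentile 99.6, and held 317 CpG sites, the most of any member. The width came from upstream of the GENCODE start, where it reached 2801 bp, against 1577 bp downstream, so that the gene span was 7.16% inside. RefSeq places the start at 32136472, within the GENCODE first exon. Measured from there, the upstream reach would be longer and the downstream reach shorter. At its upstream end lay a TSS of Gm10463, a gene model on the opposite strand. The third TSS of Fosl2, of a transcript with a retained intron, lay 9143 bp outside.

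The Jun family genes each have a single exon in the coding transcript, so that the arrangement of the Fos family could not occur in them. The coding sequence lay wholly inside the NMI in all 3. The same held for Ier2, so that 4 of the 10 genes had their coding sequence wholly inside, against 1.94% of the 10425 protein-coding genes with an NMI and 17.2% of the 1065 of them of up to 5000 bp. These 4 genes all have a single exon in the coding transcript, and neither background was matched for exon number. Jun, the prototype of the family, lies on chromosome 4 (95049034 to 95052222, minus strand, 3189 bp). Its NMI (95049927 to 95053544) was 3618 bp wide (percentile 99.2) and held 72.0% of the gene, stopping 893 bp short of its end. The remaining part of the gene, which is not coding, was poor in CpG at 0.448 per 100 bp, against 8.14 in the part inside. The NMI also held 3 TSSs of Junos, an antisense gene that overlaps the Jun start.

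Junb, which can act against Jun in cell proliferation, lies on chromosome 8 (84974484 to 84978718, minus strand, 4235 bp) and had the second widest NMI of the group, 4912 bp (84975703 to 84980614, rank 20 of 13489). It extended 1896 bp upstream and 3015 bp downstream. The coding transcript, with a single exon of 1809 bp, lay wholly inside, whereas 71.2% of the annotated span did, because the span includes a non-coding transcript that runs 1219 bp beyond the NMI. Inside, the span had 6.83 CpG per 100 bp, and outside 1.23. The density over the NMI as a whole was low for the class (5.84 per 100 bp, percentile 28.5), as was the ratio of observed to expected CpG (0.642, percentile 18.2).

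Jund, the family member that is expressed most constantly across tissues, lies on chromosome 8 (70698949 to 70700616, plus strand) and is one of the shortest members at 1668 bp. Its NMI (70698297 to 70700895) was 2599 bp wide and held the whole GENCODE span and 279 bp past its end. This NMI was the densest of the 10, with 9.23 CpG per 100 bp (percentile 85.8), a GC content of 66.3% and an observed/expected ratio of 0.840, and its coding sequence had 11.6 CpG per 100 bp. The TSS of Jund depends on the annotation. RefSeq (GRCm38.p6) places the start at 70697739, which is 558 bp outside the NMI, in a promoter window with 3 CpG sites.

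Among the sequences at the starts of the Jun family genes, those of Jun and Junb are given because they lie wholly within an NMI and differ in the elements discussed below. Each ends at the base before the RefSeq start (GRCm38.p6), with CpG in capitals.
Jun promoter, chr4:95052223-95052472 (minus strand): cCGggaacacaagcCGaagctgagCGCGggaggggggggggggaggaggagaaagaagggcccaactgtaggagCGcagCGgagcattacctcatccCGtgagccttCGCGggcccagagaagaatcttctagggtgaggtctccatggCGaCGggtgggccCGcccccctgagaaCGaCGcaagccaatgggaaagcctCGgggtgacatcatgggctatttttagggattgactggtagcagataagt
Junb promoter, chr8:84978749-84978998 (minus strand): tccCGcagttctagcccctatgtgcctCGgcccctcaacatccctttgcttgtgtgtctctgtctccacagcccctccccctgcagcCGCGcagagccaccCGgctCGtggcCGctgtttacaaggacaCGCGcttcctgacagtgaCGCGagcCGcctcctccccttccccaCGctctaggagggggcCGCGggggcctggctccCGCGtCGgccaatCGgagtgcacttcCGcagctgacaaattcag
The Jun promoter had 15 CpG sites in these 250 bases and the Junb promoter had 20.

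**Figure D2:**
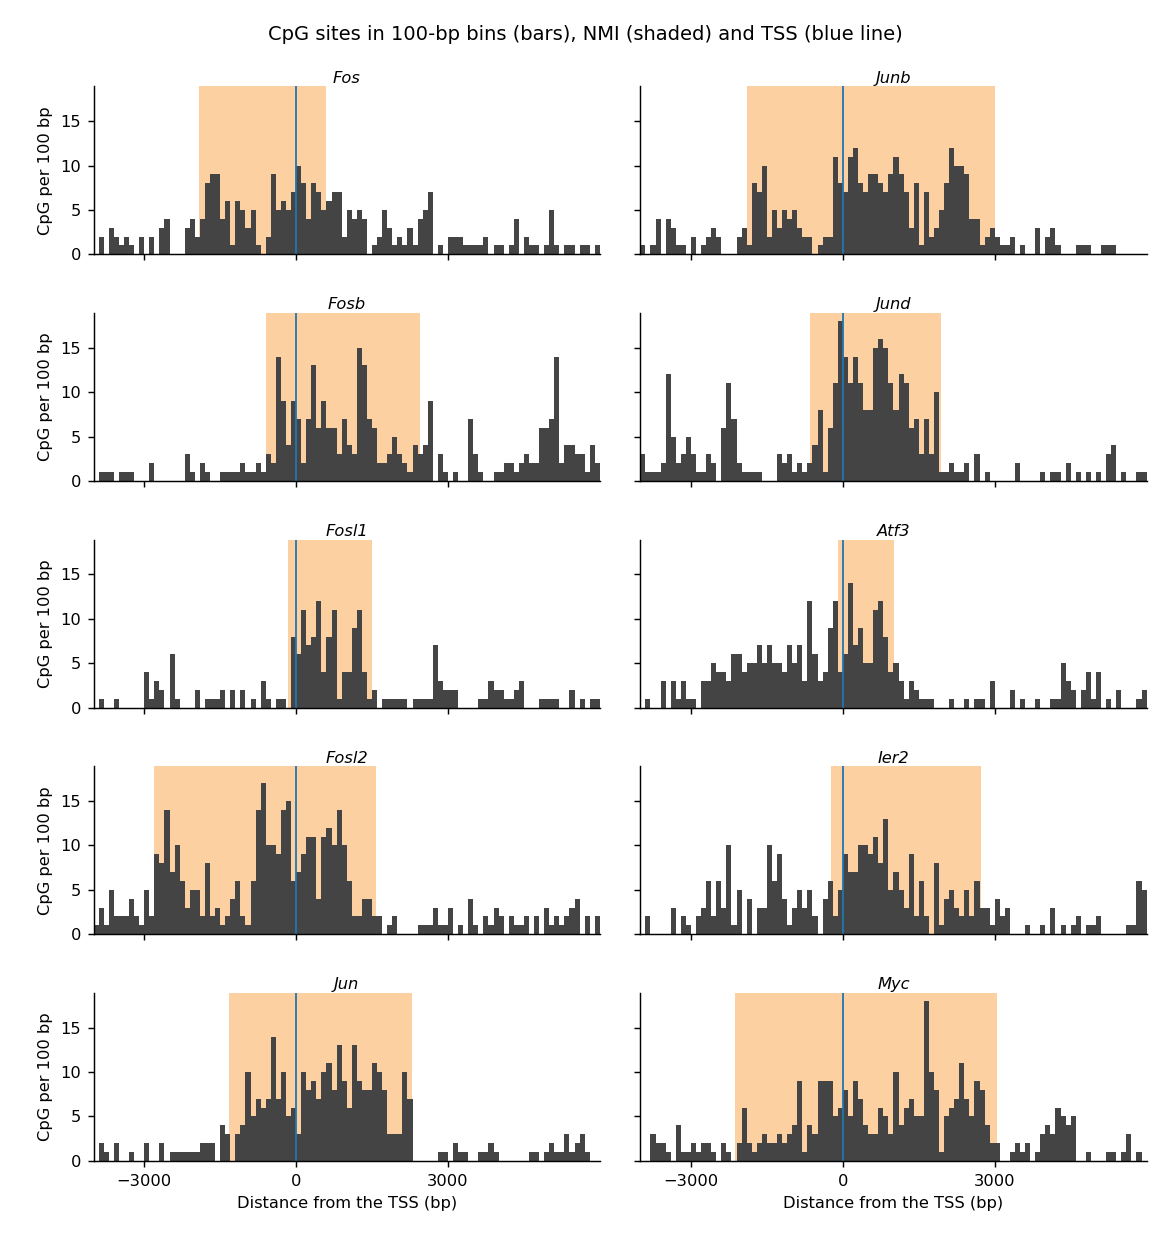
CpG sites per 100-bp bin (bars) by distance in bp from the TSS of each of the 10 genes, with the NMI shaded and the TSS as a blue line. The CpG number falls near both NMI edges in Jun and Jund, continues past the downstream edge in Fos and past the upstream edge in Atf3, and in the wide NMI of Myc ranges from 1 to 18 per bin.

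Ier2, which encodes a small nuclear protein induced by growth factors, lies on chromosome 8 (84661331 to 84662852, minus strand) and is the shortest member at 1522 bp. Its NMI (84660120 to 84663085) was 2966 bp wide, began 233 bp upstream of the TSS and ran 2732 bp downstream, 1211 bp past the end of the gene. The whole gene lay inside, with 8.90 CpG per 100 bp in its coding sequence. The NMI as a whole was less dense, 5.66 per 100 bp (percentile 25.0). Another NMI of 1946 bp, at the TSS of Gm26664, began 573 bp beyond its upstream edge, which is the closest NMI to that of any member.

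Myc, which encodes a helix-loop-helix leucine zipper protein that pairs with Max and binds E-boxes, lies on chromosome 15 (61985391 to 61990374, plus strand, 4984 bp). Its NMI (61983259 to 61988438) was the widest of the group at 5180 bp, rank 13 of 13489, and took in all 6 distinct TSSs. It reached 2132 bp upstream and 3047 bp downstream, and both reaches were above percentile 99 of protein-coding genes with an NMI. Exons 1 and 2 lay wholly inside and exon 3, of 1005 bp, wholly outside, so that 802 of 1362 coding bp (58.9%) and 61.2% of the span were covered. The edge lay 160 bp past exon 2 and 908 bp before exon 3. This widest NMI had the lowest CpG density of the 10, 5.39 per 100 bp (percentile 20.1), and near its upstream end it held the TSS of Gm37947, a gene model on the opposite strand.

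Atf3, a stress-induced member of the network that represses or activates with its partner, differed most from the others. It has the longest span, 47744 bp on chromosome 1 (191170296 to 191218039, minus strand), and the narrowest NMI, 1102 bp (191182339 to 191183440, percentile 44.0), below the median of all NMIs at protein-coding TSSs. The NMI lay at the inner promoter, 13045 bp before the gene end, where it held the first exon (248 bp) of the shorter coding transcript and none of the 543 coding bp. The outermost TSS had no NMI, and the nearest, at D730003I15Rik, lay 6106 bp away. The span was 2.31% inside, or 7.68% when measured from the inner promoter.

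The upstream edge of the Atf3 NMI lay only 100 bp before the TSS and inside CpG-rich sequence. A predicted CpG island of 3529 bp surrounded it, of which 31.2% lay in the NMI, and the 1000 bp upstream of the edge held 6.80 CpG per 100 bp, against a median of 1.45 over the 10 genes. Both sides of this edge are shown, upstream first, because the CpG sites there lie mostly outside the NMI (reference strand of transcription, CpG in capitals).
Atf3 promoter, outside the NMI, chr1:191183441-191183583 (minus strand): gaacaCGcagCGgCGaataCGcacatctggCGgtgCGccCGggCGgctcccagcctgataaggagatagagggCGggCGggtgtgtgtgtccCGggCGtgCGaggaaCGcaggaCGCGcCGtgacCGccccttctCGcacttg
Atf3 promoter, inside the NMI, chr1:191183341-191183440 (minus strand): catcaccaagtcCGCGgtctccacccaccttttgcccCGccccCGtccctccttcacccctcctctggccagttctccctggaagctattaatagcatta
The outer 143 bases had 19 CpG sites and the inner 100 bases had 4.

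**Figure D3:**
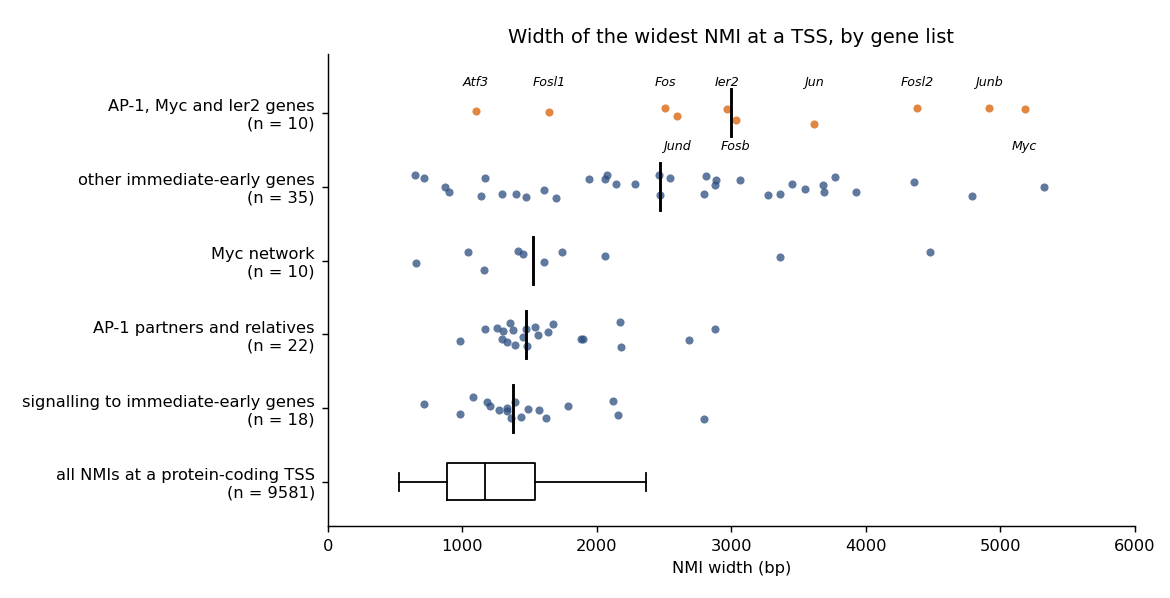
Width in bp of the NMI at a TSS for each of the 10 genes (orange), for the genes with an NMI in 4 lists of related genes (blue; black lines are medians) and for all 9581 NMIs at a protein-coding TSS (box, quartiles and median; whiskers, percentiles 5 and 95). The 10 genes have a median of 3000.5 bp and the other immediate-early genes 2472 bp, against 1173 bp over all.

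Across the 10 genes, NMIs reached a median of 987 bp upstream of the TSS, against 389 bp over protein-coding genes with an NMI, and 2120.5 bp downstream, against 748 bp. The downstream reach was the longer in 8 of 10 genes, the exceptions being Fos and Fosl2, and the downstream share of the NMI was close to that of all genes (medians 69.2% and 65.5%). At least 50% of the span was inside in Jun, Junb, Jund, Ier2 and Myc, which is 5 of 10, against 2.1% of all protein-coding genes with an NMI. These 5 are all among the 6 genes of up to 5000 bp, for which the share over all such genes with an NMI was 19.6%, and Fos is the member of that length with less. In the 6 short genes the median share of the span inside was 71.6%, and that of coding sequence was 100%, against 25.6% and 31.8% over genes of that length with an NMI.

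**Figure D4:**
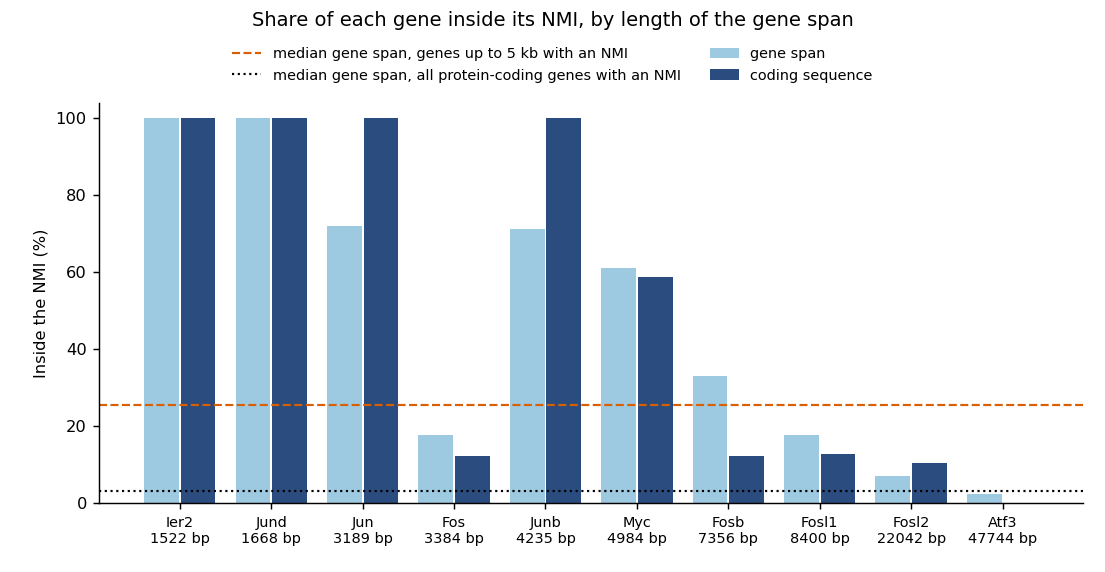
Percent of the gene span (light bars) and of the coding sequence (dark bars) inside the NMI for the 10 genes, ordered by span, with the median gene span share over genes with an NMI of up to 5000 bp (dashed, 25.6%) and over all protein-coding genes with an NMI (dotted, 3.10%). Jun, Junb, Jund, Ier2 and Myc lie above the dashed line with at least 61.2% of the span inside, Fosb lies above it with 33.2%, and Fos, although short, has 17.7%.

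Of 27 distinct TSSs of the 10 genes, 23 lay in an NMI, against 59.5% of the 60281 distinct TSSs of protein-coding genes with an NMI. Of the 7 genes with several TSSs, Fosb, Fosl1, Junb and Myc (4 of 7) had all of them inside, against 21.2% of 9517 such genes with an NMI. A TSS of another gene lay in the same NMI in 4 of 10 genes (Fosl2, Jun, Jund and Myc), against 26.2% of the 9581 NMIs. In each of these the other gene was a non-coding or provisional model on the opposite strand, namely Gm10463, Junos, Gm11175 and Gm37947.

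The composition of the genes changed between the inside and the outside of the NMI. Where part of the span lay outside (8 genes) it had a median of 1.41 CpG per 100 bp, and the part inside had 7.25 over the 10 genes. The coding sequence inside had 8.73 (9 genes, all but Atf3). Within the NMI, neighbouring CpG sites were a median of 7 to 12 bp apart in each gene, and the longest stretch without one ran from 57 bp in Atf3 to 214 bp in Fos. The observed/expected ratio ran from 0.642 in Junb to 0.840 in Jund, with a median of 0.710 against 0.762 over NMIs at protein-coding TSSs, and repeats made up a median of 9.25% against 5.73%.

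CpG islands predicted from the sequence alone (merged windows of 500 bp or more in which GC reached 55% and observed/expected CpG reached 0.65) touched every one of the 10 NMIs, as they did 93.5% of the 9581 NMIs at a protein-coding TSS. The islands made up a median of 80.1% of the NMI, against 94.6% over those 9581, and ran from 60.5% of the NMI in Ier2 and 62.8% in Junb to 96.8% in Jun, 97.1% in Jund and 100% in Atf3. In Fos, Fosl2, Junb and Myc (4 of 10) the NMI spanned the sequence between 2 separate predicted islands, and 2.34% of the 9581 NMIs touched more than 1. Those 9581 were narrower (median 1173 bp) and were not matched for width, and a wider NMI has more room for several islands. The gap between the islands was short in Junb (84977020 to 84977084) and Myc (61986205 to 61986288). Of 26 predicted islands in and around the genes, 2 had no NMI: 932 bp in the last exon of Fosb (19304477 to 19305408), which begins in the intron before it, and 501 bp upstream of Jund (70696316 to 70696816). Both were marginal. Over its merged length the Fosb island had the lowest observed/expected ratio of the 26, 0.601. The Jund island was the shortest, with a ratio of 0.655.

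Other NMIs lay within 10000 bp of 6 of the 10 genes, 12 in all, against 38.2% of the 10425 protein-coding genes with an NMI and 48.2% of those of up to 5000 bp. Those at Fosl1 belonged to the neighbouring genes Ccdc85b (1268 bp, 715 bp past the gene end) and Fibp (899 bp), and those downstream of Junb to Rnaseh2a (1130 bp) and to the divergent starts of Prdx2 and Rnaseh2a (1392 bp). Of the 12, 5 held no TSS. These included 1536 bp of intergenic DNA 8284 bp downstream of Fos and 1771 bp of intergenic DNA 5921 bp upstream of Junb. No other NMI lay within this distance of Fosl2, Jun, Jund or Myc.

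RefSeq promoter windows (GRCm38.p6, 250 bases before the start to 50 bases of the transcript) were given for 7 of the 10 genes, and not for Fosl1, Ier2 and Myc. They held 20 CpG sites in Fos, 25 in Fosb, 32 in Fosl2, 15 in Jun, 21 in Junb, 27 in Atf3 and 3 in Jund, against a median of 7 over 32851 windows. The Jund window lay outside the NMI, the Atf3 window was 52.3% inside, and the other 5 were wholly inside. The Fosl2 window (32136222 to 32136521) lay within the GENCODE first exon of the gene. The GC box GGGCGG, the site of Sp1 family factors, was matched on either strand in Fos, Fosb, Fosl2, Jun and Atf3, 5 of 7, against 35.7% of all windows, and in Fos its complement is the stretch of the printed promoter that begins 74 bases before the start. The GC box itself holds a CpG, and the 32851 windows were not matched for CpG number. TATAAA was matched 33 bases before the Fos start and at the RefSeq start of Junb (84978748), against 13.6% of windows on either strand. The GENCODE start of Junb, from which the reaches above were measured, is 84978718. The Junb match thus lies upstream of that start. Exact matches to the CRE (TGACGTCA), the AP-1 site or TRE (TGANTCA), the Myc site or E-box (CACGTG), the ETS core (CCGGAA) and the CArG box of SRF were in 0 of the 7 windows, and in 1.79%, 7.81%, 7.15%, 14.9% and 1.63% of all windows. At such shares, 0 of 7 windows is no clear difference. Similar letters were not counted, such as TGACATCA in the printed Jun promoter and TGACGTAG in the printed Fos promoter. Sites more than 250 bases before the start were not searched, so the counts do not show that these genes lack such elements. These are letters in a window of 300 bases, not measured binding sites.

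Genes related to the 10 by role were counted in the same way. Among other immediate-early genes, 35 of 38 had an NMI, with a median width of 2472 bp, and 17 of them were 2500 bp or wider. The widest were at Gadd45b, a stress sensor of the growth arrest and DNA damage family (5328 bp), Zfp36l1, which destabilizes mRNAs (4791 bp), and Ccn1, a secreted matrix protein (4360 bp). The NMI of Gadd45b, like those of Jund and Ier2, covered the whole GENCODE span of the gene. So did those of Ier3 (2886 bp) in the same list and of Cebpb among the AP-1 relatives below. Egr4, Gem and Npas4 had none, and the nearest NMI to a Npas4 TSS was 621 bp away.

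The binding partners and the signalling genes had NMIs of lower median width. Of 25 relatives of AP-1 in the basic leucine zipper class, 22 had an NMI, with a median width of 1477.5 bp. Those of Cebpb (2879 bp), Atf4, the main effector of the integrated stress response (2685 bp), and Nfe2l2, the regulator of oxidative stress genes (2184 bp), were the widest. Batf, Nfe2 and Nfe2l3 had none. In the Myc network 10 of 13 genes had an NMI (median 1528 bp), with the Myc antagonists Mxi1 (4478 bp) and Mnt (3366 bp) and the ubiquitin ligase gene Fbxw7 (2059 bp) the widest, and the Myc paralogues Mycl and Mycn and the glucose-responsive factor gene Mlxipl without. Among kinases and SRF partners that signal to immediate-early genes 18 of 20 had an NMI (median 1377.5 bp), led by Rps6ka3 (2796 bp), Srf (2161 bp) and Mapk14 (2118 bp), with Elk1 and Mapk10 without. Myc was thus the only Myc paralogue of the 3 with an NMI in the list.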

How the data were processed

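The BioCAP library of C127 cells was captured on KDM2B CXXC resin, and DNA released at high salt was sequenced. Reads were mapped by the authors to mm10 (Bowtie2), only those with a unique position were kept, duplicates were taken out (SAMtools), and NMIs were called with MACS (MACS2 in the submitters' processing notes). The sources used here gave neither tool versions nor whether the input served for background. The deposited list gave only the chromosome and both ends of each NMI, with no count, score or p-value. Depth was therefore unknown. The unique-position filter can remove signal in repeats, and the threshold and the fragment length set where an NMI ends.

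Starts were converted to count from 1. Genes came from GENCODE M21 and an NMI was at a TSS when it overlapped the 5′ end of any transcript by at least 1 bp. Shares of spans, exons and coding sequence, and CpG content were computed from the reference with Python 3.11.15, numpy 2.4.6 and pandas 2.3.3, and exact binomial intervals with scipy 1.17.1. Scripts were tested on simulated intervals. Percentiles are among NMIs at a protein-coding TSS. Values are descriptions, with no test. The members, the lists and the rule for named genes (all 10 members, the 3 widest and up to 5 without an NMI of each list, and neighbours sharing an NMI or within 10000 bp) were chosen with earlier results of these data known. Ier3 is named outside this rule, for its wholly covered span. In the list of other immediate-early genes, Ccn1 and its relative Ccn2 were matched through RefSeq synonyms, and Maff stands in 2 lists. Alternatives changed the distance to the TSS, the TSSs used, the narrowest NMIs, the definition of the gene body and of CpG density, and left out chromosome 8.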

Additional observations from a re-analysis of the deposited data

How the results depend on the processing

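Of 39 alternative values over 12 settings, 32 moved by less than the spread over the genes, or stayed within 1.5 times a count. All 10 genes kept an NMI at a TSS at distances of 250 and 1000 bp, with protein-coding transcripts alone and without NMIs of 572 bp or less. With the outermost TSS alone Atf3 was lost and 9 remained, and with RefSeq starts Jund was lost and 9 remained. The median width stayed between 3000.5 and 3035 bp and the median CpG density between 5.86 and 6.99 per 100 bp. The median share of the gene span inside was 17.8% without the 3 genes on chromosome 8 (Junb, Jund and Ier2), whose shares are 71.2%, 100% and 100%, and ran from 33.2 to 61.2% under the other settings. Both ends of that range are medians over 9 genes. The lower came with RefSeq starts, where Jund was lost, and the upper with the outermost TSS, where Atf3 was lost. The share of protein-coding genes with an NMI, 47.5%, left its narrow counting interval in each case: 48.2% within 250 bp, 49.0% within 1000 bp, 42.5% at the outermost TSS, 46.9% with protein-coding transcripts, 48.5% with RefSeq starts and 45.3% without the narrow NMIs. No paired analysis was possible because the values come from a single library.

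With 1 library and no score, an NMI edge has no measured error. DNA methylation of the sequence outside an NMI was not measured.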
